A study of Mus musculus with 24 samples.

Results

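The transcriptome of callosal projection neurons (CPN) labelled by Cux2 was compared between postnatal day 21 (P21) and P48, that is, between the juvenile and the young adult cortex. Of the 9767 gene entries in the deposited expression table, 7788 were members of this comparison. A member reached at least 10 FPKM (RNA fragments corrected for transcript length and for library depth) at P21 or at P48 in Cux2 CPN, and symbols that start with Mir, Snor, SNOR, or AC or AL plus digits, and Gm-numbered entries listed at 0 throughout one neuron class, were left out. The member nearest to the minimum was Papd5, with 10.002 FPKM in its higher column, and the nearest entry outside was Cpne1, with 9.998 FPKM. Changes are given as the difference of log2(FPKM + 1), P48 minus P21, and a gene is called higher or lower when that difference reaches 1 or -1.

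Both groups were mice labelled as C57BL/6, of a mixed background by the study's methods, with the genotype Cux2-CreERT2:Ai14. In this design the Cux2 locus drives a tamoxifen-inducible Cre, which switches on the red reporter tdTomato of Ai14, and 4-hydroxytamoxifen was given to the pregnant dams, so P21 and P48 animals shared the same prenatal induction. Somatosensory and motor cortex was dissociated with papain, and labelled cells were sorted by fluorescence. By the study's methods the papain concentration was raised for P21 and P48 animals, whereas the sample labels give 12 U per ml at all ages. By those methods, comparisons of P21 or P48 with earlier ages span that change. Each group comprised 2 libraries, each from cells pooled over several animals of both sexes by the study's methods, and these methods state that the Cux2 line also labels some interneurons, a small minority of cells in their single-cell check of both lines together. The corticothalamic projection neurons (CThPN) used for comparison carried Tle4-2A-CreERT2:Ai14 and were handled in the same way at the same ages. The table gives 1 value per gene and group, computed over both libraries, so no difference below has a replicate error or a test. The number of reads behind a value is unknown.

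Callosal neurons of the upper layers send axons through the corpus callosum to the opposite hemisphere. By the third postnatal week their axons have reached their targets and most synapses have formed. The weeks that follow span the refinement of synapses by experience, the later phase of cortical myelination, and the accumulation of neuronal DNA methylation laid down by Dnmt3a. Excitatory neurons also respond to firing with a rapid burst of transcription of the immediate early genes, whose products are transcription factors, phosphatases that end kinase signalling, and synaptic effectors.

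Most of the transcriptome differed little between the ages. Of the 7788 members, 6800 (87.3%) lay within 0.5 of no difference, and the median difference was -0.08, with 61.2% of the members below 0. There were 79 genes higher at P48 (1.01% of the members) and 52 lower (0.668%). Of the 79, 49 were below 10 FPKM at P21, and of the 52, 28 were below 10 FPKM at P48, so most called genes had a low level at one of the ages. With the 2 columns aligned by their median ratio the split was 102 higher and 43 lower, and with a limit of 0.58 in place of 1 it was 302 and 359. Both counts moved with other settings too, as given further below.

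**Figure D1:**
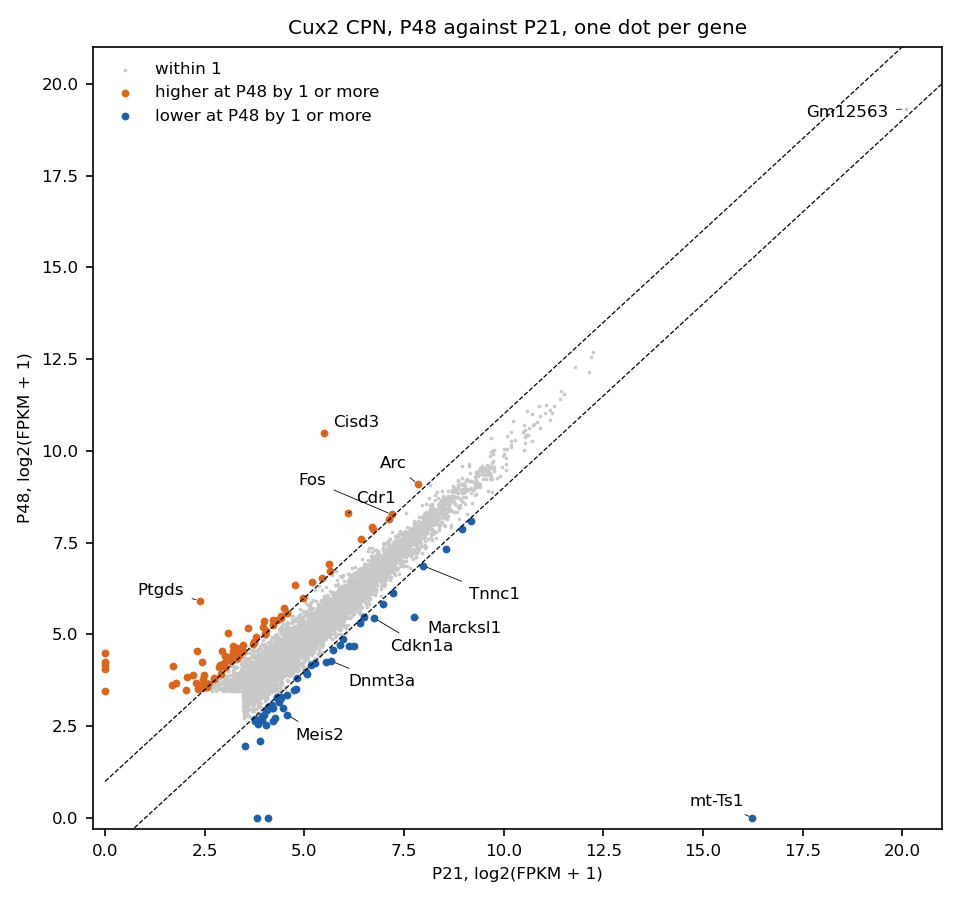
Level of each of the 7788 members in Cux2 CPN at P21 (x axis) and P48 (y axis), both in log2(FPKM + 1), with dashed lines at a difference of 1 and -1. The 79 higher genes (orange) and 52 lower genes (blue) lie outside a narrow diagonal band, and mt-Ts1, a tRNA entry of 69 nt, is the far blue point on the x axis.

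The levels at the 4 earlier ages (E18.5, P1, P3 and P7) can be set beside these differences. Leaving out entries with annotated exons of up to 300 nt and symbols carried by several rows, 69 higher and 46 lower genes remained. They were called by their P48 level against P21, which favours P48 levels beyond those of the earlier ages. The share of all members with each pattern was not counted. Of the 69, 62 were above each of the earlier ages at P48, and 35 of these already exceeded them at P21. Of the 69, 12 were at P21 below every earlier age, among them Atrx, Ankrd12, Thoc2, Smc3 and Akap9. Of the 46 lower genes, 25 were at P48 below every earlier age, and 15 of these, including Marcksl1, Pou3f1 and Tle3, had been below all of them at P21 as well. The other pattern, a level at P21 above every earlier age and a lower one at P48 that still exceeded them, was found for 14 of the 46, including Nptxr, Tnnc1, Cdkn1a, Rin1 and the 4 haemoglobin genes.

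**Figure D2:**
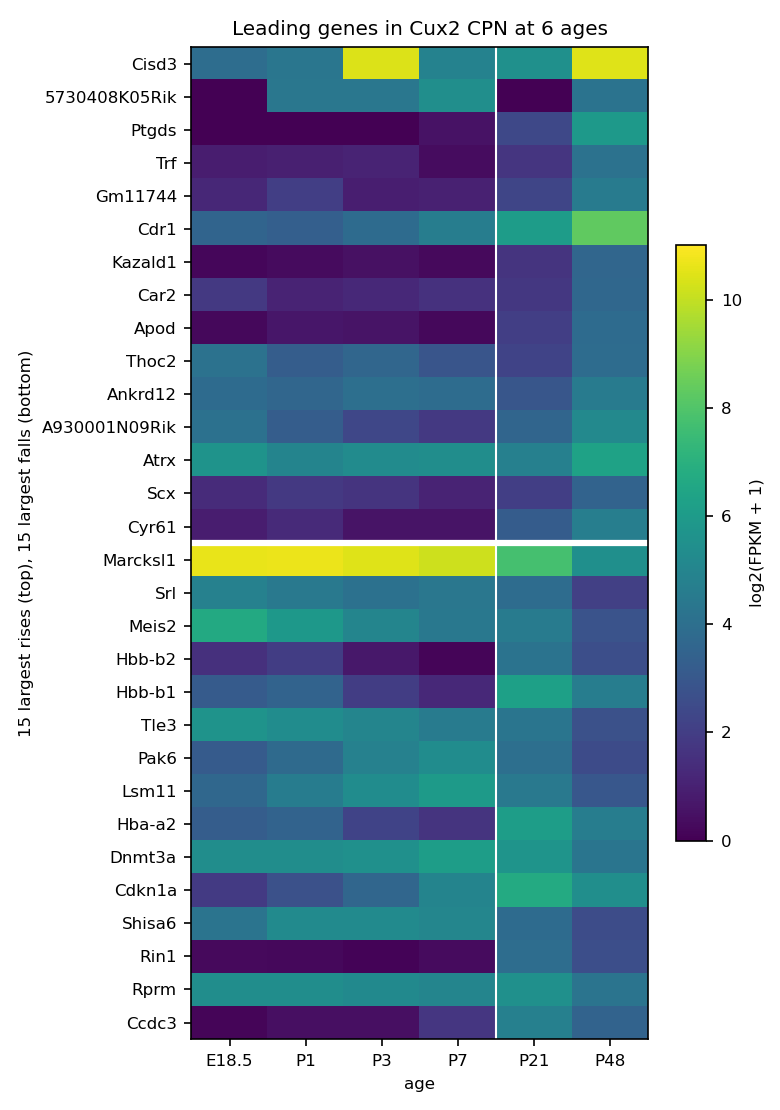
Level of the 15 genes with the largest rise (top) and the 15 with the largest fall (bottom) from P21 to P48, leaving out entries of up to 300 nt and symbols in more than 1 row, as log2(FPKM + 1) in colour, at the 6 ages of Cux2 CPN. Ptgds, Trf, Kazald1 and Apod are near 0 before P21, Cisd3 is high at P3 and P48 alone, and Marcksl1 declines from 1595 FPKM at E18.5 to 43.7 at P48.

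Immediate early genes were the list with the most genes higher at P48 by number. By share of members they did not lead, as 3 of 9 oligodendrocyte markers and 4 of 13 mitochondrial entries over 300 nt were higher. The list of immediate early genes held 42 genes, of which 30 were members. Of the 30, 8 were higher and 0 lower, beside 1.01% and 0.668% of all members. The median difference was 0.25 against -0.08 over all members. Centred on GC content and length, 9 were higher and the median was 0.46. The effector Arc, which regulates the removal of AMPA receptors from synapses, had 229 FPKM at P21 and 544 at P48, a difference of 1.24. Npas4, a transcription factor induced almost solely by neuronal activity, had 21.4 and 51.4 FPKM (1.22). Both were nearly silent at E18.5, Arc at 0.102 and Npas4 at 0.202 FPKM, and both were highest at P48 among the 6 ages.

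The AP-1 components Fos (145 and 307 FPKM, 1.07) and Junb (84.4 and 193 FPKM, 1.18) and the orphan nuclear receptor Nr4a1 (139 and 284 FPKM, 1.02) also reached the limit. Dusp1, a phosphatase that switches off MAP kinases, had 102 FPKM at P21 and 245 at P48 (1.25), the antiproliferative regulator Btg2 had 17.5 FPKM at P21 and 40.98 at P48 (1.19), and the secreted matrix protein Cyr61 had 8.31 FPKM at P21 and 24.8 at P48 (1.47). Below the limit, Ier2 (0.95), Trib1 (0.90), Jun (0.80), Egr2 (0.69) and Egr1 (563 and 795 FPKM, 0.50) were also above 0. Of the 30 genes, 10 had negative differences, among them secreted and synaptic proteins, with Nptx2 at 58.2 and 33.95 FPKM (-0.76), Inhba at -0.66, Homer1 at -0.49, Scg2 at -0.39 and Vgf at -0.30, and Bdnf, the activity-regulated neurotrophin, had 24.4 and 20.7 FPKM (-0.22).

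In Tle4 CThPN 0 of the 30 genes reached the limit, where 0.282% of all members were higher and 0.578% lower, and their median difference was 0.04. Arc had 393 FPKM at P21 and 431 at P48 there, Npas4 18.2 and 17.5, Dusp1 132 and 128, and Fos 123 and 150.5. At P21 Arc and Junb were lower in Cux2 CPN than in Tle4 CThPN (84.4 against 152 FPKM for Junb), and at P48 Arc was higher in Cux2 CPN while Junb was nearly level (193 against 199). Several of these genes are also induced by tissue dissociation. On a list of 26 dissociation-induced genes, 17 were members. Of the 17, 4 were higher at P48 (Dusp1, Btg2, Junb and Fos) and 0 lower, beside 1.01% and 0.668% of all members. Those 4, and Egr1, Jun and Ier2, which were also above 0, stand on both lists, so the lists are not independent. Of the 17, 12 were above 0, and the median of the dissociation list was 0.35, beside 0.12 in Tle4 CThPN. Among its chaperones, Hsp90aa1 had 497 FPKM at P21 and 773 at P48 (0.64), Dnajb1 36.8 and 39.6 (0.10), and Hspa8 1581 and 1566 (-0.01). The part of dissociation in the immediate early gene levels was not tested.

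**Figure D3:**
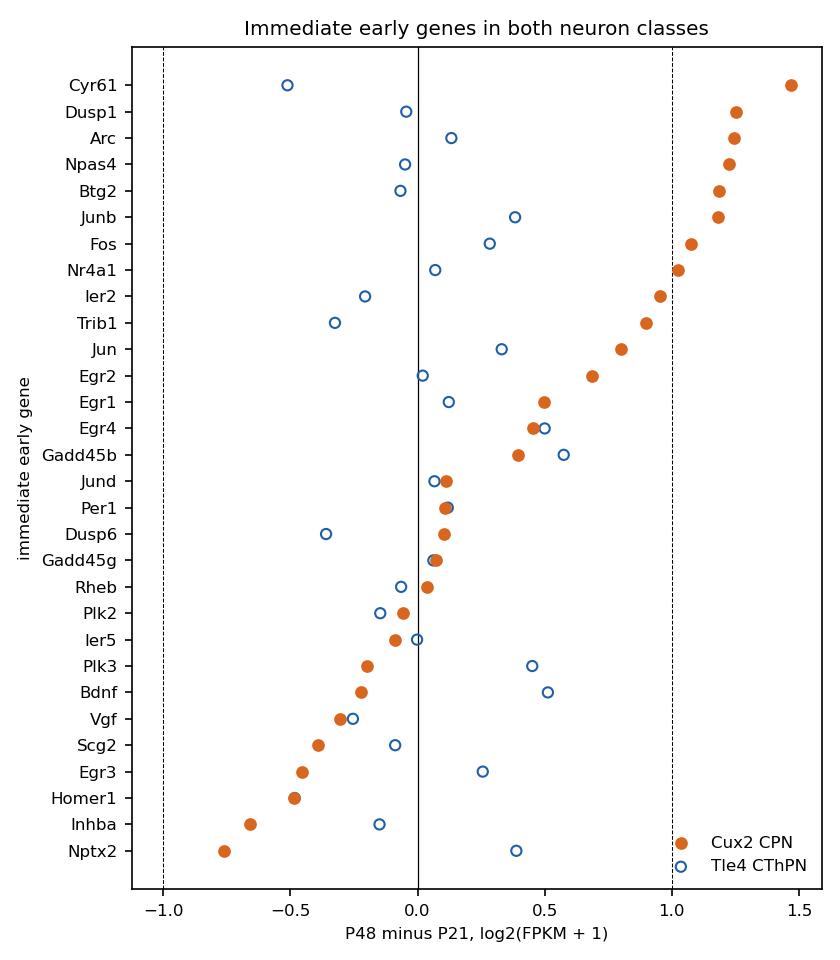
Difference between P48 and P21, in log2(FPKM + 1), for the 30 immediate early genes, with Cux2 CPN as filled orange and Tle4 CThPN as open blue circles and dashed lines at 1 and -1. The top 8 genes, from Cyr61 to Nr4a1, exceed 1 in Cux2 CPN, and all open circles lie between the dashed lines.

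The promoters of these genes are shown because many immediate early genes carry sites for CREB, the factor that links calcium and cyclic AMP signals to transcription. The sequences were read from RefSeq (build GRCm38.p6). A promoter was matched by symbol or synonym for 23 of the 30 genes, and for 7 of the 8 higher ones, all but Arc. For each gene the 120 bases with the most matches to TGACG (or CGTCA on the other strand), within the 250 bases upstream of the transcription start, are given 5′ to 3′ in the direction of the gene, with matches in capitals. Overlapping matches on both strands merge into the full site TGACGTCA.
Npas4 (chr19:4990031-4990150, minus strand, bases -179 to -60 relative to the start): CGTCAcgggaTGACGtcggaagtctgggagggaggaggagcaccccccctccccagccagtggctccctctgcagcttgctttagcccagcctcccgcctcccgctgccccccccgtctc
Fos (chr12:85473761-85473880, plus strand, bases -129 to -10 relative to the start): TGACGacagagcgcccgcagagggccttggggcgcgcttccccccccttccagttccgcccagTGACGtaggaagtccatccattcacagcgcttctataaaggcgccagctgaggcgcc
Junb (chr8:84978749-84978868, minus strand, bases -120 to -1 relative to the start): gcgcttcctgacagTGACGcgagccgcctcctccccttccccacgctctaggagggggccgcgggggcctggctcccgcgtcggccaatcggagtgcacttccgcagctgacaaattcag
Nr4a1 (chr15:101266726-101266845, plus strand, bases -120 to -1 relative to the start): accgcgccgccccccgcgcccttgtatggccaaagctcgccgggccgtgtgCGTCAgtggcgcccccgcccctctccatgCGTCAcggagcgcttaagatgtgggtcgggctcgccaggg
Dusp1 (chr17:26508544-26508663, minus strand, bases -191 to -72 relative to the start): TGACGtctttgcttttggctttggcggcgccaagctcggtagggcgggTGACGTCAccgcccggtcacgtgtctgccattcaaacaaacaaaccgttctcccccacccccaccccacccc
Btg2 (chr1:134079202-134079321, minus strand, bases -166 to -47 relative to the start): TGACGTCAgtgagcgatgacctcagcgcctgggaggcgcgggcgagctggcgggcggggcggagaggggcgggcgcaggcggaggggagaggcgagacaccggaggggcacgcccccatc
Cyr61, named Ccn1 in RefSeq (chr3:145649986-145650105, minus strand, bases -120 to -1 relative to the start): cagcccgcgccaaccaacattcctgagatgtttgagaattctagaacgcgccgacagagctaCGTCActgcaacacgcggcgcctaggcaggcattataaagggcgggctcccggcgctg

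All 7 of these promoters held TGACG on a strand, 5 held the longer TGACGT, and Btg2 and Dusp1 held the complete TGACGTCA. Over the 23 immediate early genes matched to a RefSeq promoter the numbers were 16, 13 and 4. Counted the same way, over any start of a gene, 19.8% of the 27025 genes with a RefSeq promoter held TGACG, 7.29% TGACGT and 1.77% TGACGTCA, on either strand. By promoter, of which there were 32851, the shares were 17.8%, 6.47% and 1.55%. Genes with several starts have more promoters in which a match can fall, as Bdnf with 7. These matches describe letters in a window and do not show that a factor binds.

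Several of the largest rises belonged to genes known from glia. Of the genes named here, Ptgds and Apod were on no gene or marker list. Ptgds, which makes prostaglandin D2 and is abundant in oligodendrocytes and meninges, had 4.19 FPKM at P21 and 59.4 at P48, 14.2-fold as much. The iron carrier Trf had 2.24 and 16.5 FPKM (2.44), carbonic anhydrase Car2 2.42 and 11.9 (1.92), the lipocalin Apod 3.15 and 13.3 (1.78), and the myelin gene Mobp 15.5 and 33.4 (1.06). All 5 were below 3 FPKM from E18.5 to P7, with Mobp at 0.0187 FPKM at E18.5.

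Of the 20 oligodendrocyte markers, 12 had values here and 9 were members. Of the 9, 3 were higher (Trf, Car2 and Mobp) and 0 lower, beside 1.01% and 0.668% of all members, with a median of 0.54. Mbp, a major myelin protein, was closer between ages, with 68.6 and 78.7 FPKM (0.19). The summed level of these 12 was 336 FPKM at P21 and 423 at P48 in Cux2 CPN, against 542 and 348 in Tle4 CThPN, and Mal, Opalin and Sox10, which also define these cells, were among the 8 listed markers with no value here. In pooled sorted cells, a change in the number of cells of a type and a change in RNA per cell cannot be told apart. The part of glial RNA in the levels of Ptgds and Apod was not tested.

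Interneuron genes differed in the same direction. Of 8 member markers, 7 had a positive difference, beside 38.8% of all members, 0 reached the limit, and the median was 0.54. The neuropeptide Sst had 283 FPKM at P21 and 538 at P48 (0.92), Pvalb, a calcium buffer of fast-spiking interneurons, had 9.95 and 19.4 FPKM (0.90), and the GABA-synthesizing Gad1 had 18.1 and 27.8 (0.59). Npy had 145 and 222 FPKM (0.61), and Vip had 16.9 and 14.6 (-0.20). The summed level of 15 interneuron markers was 536 FPKM at P21 and 897 at P48 in Cux2 CPN, where Sst and Npy held most of it at both ages. In Tle4 CThPN the sum was 166 and 44.5.

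Other higher genes did not belong to these groups. Cdr1, whose X-chromosomal locus (chromosome X, 58436421 to 58438733 in NCBIM37) also yields the antisense circular RNA Cdr1as, had 67.6 FPKM at P21 and 316 at P48 (2.21) and had been at 10.6 FPKM at E18.5. The library kit does not keep the strand, so reads of the 2 transcripts cannot be told apart. In Tle4 CThPN the same entry had 184 and 141 FPKM.

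Kazald1, a secreted protein with an insulin-like growth factor binding domain, Aifm3, a mitochondrial protein of the apoptosis-inducing factor family, and Deptor, an inhibitor of mTOR, were higher in both neuron classes. Kazald1 had 2.18 and 11.3 FPKM in Cux2 CPN (1.95) and 2.61 and 9.99 in Tle4 CThPN (1.61). For Aifm3 the Cux2 CPN levels were 8.17 and 22.2 FPKM (1.34), beside 4.44 and 12.7 FPKM in the corticothalamic class (1.33). For Deptor they were 4.99 and 11.6 FPKM (1.07), beside 7.48 and 17.3 (1.11). All 3 were at their highest of 6 ages at P48 in Cux2 CPN.

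The largest rise of all belonged to Cisd3, an iron-sulfur protein of mitochondria, with 44.3 FPKM at P21 and 1428 at P48, 32.2-fold as much. Its level did not follow age. It was 1350.1 FPKM at P3 but 14.3 at E18.5, 19.1 at P1 and 28.6 at P7, and 62.3 and 69.5 in Tle4 CThPN at P21 and P48. The gene lies on chromosome 11, 97547140 to 97549935 in NCBIM37, and its longest coding transcript has 737 nt.

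A further set of higher genes had long, AT-rich transcripts. Of the 69 higher genes, 35 were in the lowest of 5 equal classes of transcript GC content, and 20 had a transcript over 4000 nt with less than 45% GC, a description chosen after their values were seen, which held for 8.80% of all members. The chromatin remodeller Atrx had 26.3 FPKM at P21 and 79.7 at P48 (1.56), Ankrd12 had 6.65 and 22.5 (1.62), Thoc2, a subunit of the mRNA export complex THO, 3.60 and 14.02 (1.71), and the nuclear pore protein Tpr 7.61 and 19.9 (1.28). The cohesin subunit Smc3 (7.88 and 18.3 FPKM, 1.12), the kinase Rock2 (12.3 and 26.97 FPKM, 1.07) and the autophagy protein Rb1cc1 (18.99 and 41.2 FPKM, 1.08) differed by like amounts. Atrx differed in the opposite direction in Tle4 CThPN, from 59.2 to 31.4 FPKM.

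The difference between the ages varied with base composition across all members. In the 7476 members with a known transcript, the median difference was 0.12 in the lowest of these classes (median 42.3% GC), -0.04, -0.13 and -0.15 in the next ones, and -0.20 in the highest (median 58.4%). In Tle4 CThPN the same classes ranged from -0.06 to 0.01. Length showed a like but smaller gradient, from 0.04 in the shortest to -0.17 in the longest class. Spearman's rho across genes, which share the same libraries, was -0.36 with GC content and -0.23 with length in Cux2 CPN and 0.09 and -0.14 in Tle4 CThPN. When each difference was centred on the median of genes in the same class of GC content and of length, 69 genes were higher and 24 lower, against 67 and 42 uncentred among the same genes. The part of base composition in the levels was not tested.

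**Figure D4:**
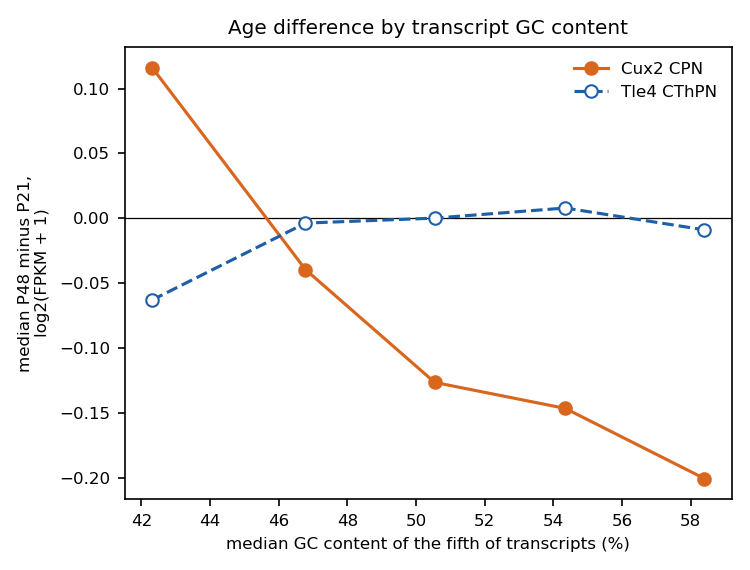
Median difference between P48 and P21, in log2(FPKM + 1), for 5 equal groups of transcripts ordered by GC content (x axis, median percent of each group), in Cux2 CPN (filled orange) and Tle4 CThPN (open blue). The Cux2 line runs from 0.12 to -0.20, and the Tle4 line stays between -0.06 and 0.01.

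Transcripts of the mitochondrial genome, which encode core subunits of the respiratory chain and 2 ribosomal RNAs, had mostly positive differences. Of the 13 entries over 300 nt, 4 were higher at P48 (1.01% of all members were), 12 were above 0 (38.8% of all members) and the median was 0.57. Of these, mt-Nd5 (48.3 and 119 FPKM, 1.29), mt-Nd4 (104 and 235 FPKM, 1.16), mt-Nd6 (12.8 and 29.3 FPKM, 1.13) and mt-Nd2 (49.1 and 104 FPKM, 1.07), all subunits of complex I, reached the limit, and mt-Co1 (1527 and 2187 FPKM, 0.52) and mt-Cytb (816 and 1297 FPKM, 0.67) did not. A GC content was known for 12 of the transcripts, a set that leaves out both ribosomal RNAs and includes the short mt-Atp8. Their median GC content was 36.5%, and centred on GC content and length their median difference was 0.31, with mt-Nd5 past the limit at 1.11. Over all 15 entries, short ones included, the uncentred median was 0.52, and in Tle4 CThPN it was -0.24 with 0 above 0. Of the 78 nuclear-encoded members for the respiratory chain and ATP synthase 0 were higher, the median was 0.05, and the 1 lower gene was Cox6a2, a muscle-type subunit of cytochrome oxidase, with 12.6 FPKM at P21 and 5.54 at P48 (-1.06). The 82 cytosolic ribosomal protein genes, of which 0 reached the limit, had a median of 0.10, and in Tle4 CThPN 0.11.

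Among the lower genes, leaving out entries of up to 300 nt, Marcksl1 had the largest fall. It encodes an actin-binding substrate of protein kinase C that is abundant in growing neurites, lies on chromosome 4, 129190825 to 129193229 in NCBIM37, and had 216 FPKM at P21 and 43.7 at P48 (-2.28), 4.95-fold less. Its level had been 1595 at E18.5, 1637 at P1, 1394 at P3 and 1134 at P7, so the fall continued over all ages from P1 onward. In Tle4 CThPN it had 288 and 73.5 FPKM (-1.96).

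Of the 67 genes of axon growth, guidance and the immature cytoskeleton, 46 were members. Marcksl1 was the 1 lower gene and 0 were higher, beside 0.668% and 1.01% of all members. The median of the list was -0.36, and 36 of 46 differences were below 0, beside 61.2% of all members. The tubulin Tubb2a had 543 FPKM at P21 and 308 at P48 (-0.82), after 1993 at P7, the guidance receptor Ephb1 12.03 and 6.49 (-0.80), the secreted guidance cue Slit3 15.8 and 8.77 (-0.78), and the adhesion molecule Nrcam 222 and 136 (-0.70). Stmn1, a microtubule-destabilizing protein, had 1903 and 2399 FPKM (0.33), and Dcx, a marker of immature neurons, 9.60 and 13.4 (0.44), both in the other direction. Centred on GC content and length the list median was -0.19. The 16 members for the mature cytoskeleton had a median of -0.32, and -0.11 when centred, with 0 genes past the limit and the neurofilaments Nefm at -0.55 and Nefl at -0.53.

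Dnmt3a, the enzyme that writes new DNA methylation in postmitotic neurons, was lower at P48 in both classes. In Cux2 CPN it had 41.6, 40.5, 44.4 and 69.00 FPKM from E18.5 to P7, 50.01 at P21 and 18.4 at P48, so the lowest level of the 6 ages came last (-1.40). In Tle4 CThPN it had 47.5 FPKM at P21 and 19.6 at P48 (-1.23). Tet3, which oxidizes methylated cytosine, had 18.9 FPKM at P21 and 9.05 at P48 (-0.99), and Tdg, a glycosylase of the demethylation pathway, 83.3 and 50.9 (-0.70). Dnmt1, the maintenance enzyme, had 15.1 and 12.3 FPKM (-0.27), and the reader Mbd2 28.3 and 37.03 (0.38). Over the 13 members of this list, 1 was lower and 0 higher, beside 0.668% and 1.01% of all members, and the median was -0.01.

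Several transcriptional regulators with high early levels were at their lowest at P48. The homeodomain factor Meis2 had 101 FPKM at E18.5, 20.2 at P7, 22.8 at P21 and 6.02 at P48 (-1.76). Tle3, a Groucho corepressor, had 49.7 at E18.5, 18.1 at P21 and 5.58 at P48 (-1.54). Pou3f1, a POU factor of upper-layer neurons, had 96.5 at P1, 17.5 at P21 and 7.03 at P48 (-1.20). The kinase Pak6 and the U7 snRNP component Lsm11 had instead peaked at P7, at 39.5 and 63.2 FPKM, and their differences were -1.51 and -1.46. In Tle4 CThPN Meis2 had 172 and 139 FPKM (-0.31) and Lsm11 4.88 and 5.67 (0.18).

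Callosal identity genes had a small negative median. Of 32 genes listed, 23 were members, with 1 lower (Pou3f1) and 0 higher, beside 0.668% and 1.01% of all members. The median was -0.15, or -0.06 when centred on GC content and length, for which Pou3f1 and Cux2 had no value. Cux2 itself, the locus that drives the Cre, had 56.8 FPKM at P21 and 31.01 at P48 (-0.85), after 73.02 at E18.5, and in Tle4 CThPN it had 1.34 and 0.608 FPKM. Its paralog Cux1 had 97.3 and 74.97 (-0.37), the calcium buffer Calb1 99.8 and 61.3 (-0.69), and Wfs1, an endoplasmic reticulum protein, 19.1 and 10.01 (-0.87). Of the deep-layer genes 7 were members, and Rprm, a cell cycle inhibitor enriched in corticothalamic neurons, was lower, with 45.2 FPKM at P21 and 18.04 at P48 (-1.28), while it had 562 and 548 FPKM in Tle4 CThPN. Tle4 had 6.18 FPKM at P21 and 7.15 at P48, far below the 90.6 and 75.02 FPKM of Tle4 CThPN.

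Genes with their highest level at P21 among the lower genes included signalling and synaptic proteins. Nptxr, a neuronal pentraxin receptor that clusters AMPA receptors, had 63.8 FPKM at P7, 376 at P21 and 159 at P48 (-1.23). Tnnc1, the slow troponin C, had 0.722 at P7, 251 at P21 and 116 at P48 (-1.10), against 11.1 and 5.34 in Tle4 CThPN. The Ras effector Rin1, which restrains synaptic plasticity, had 0.253, 14.4 and 5.33 FPKM at these ages (-1.28).

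The cell cycle inhibitor Cdkn1a followed the same course, with 2.67 FPKM at E18.5, 30.1 at P7, 106 at P21 and 42.8 at P48 (-1.29), and had 23.7 and 24.9 in Tle4 CThPN. It was the 1 lower gene among 11 members responsive to glucocorticoid and steroid hormones, beside 0.668% of all members, and the median of the 11 was 0.06. Camk1g, a calcium/calmodulin-dependent kinase, had 61.2 FPKM at P21 and 28.1 at P48 (-1.09) and 13.6 and 5.95 in Tle4 CThPN (-1.07). The receptor phosphatase Ptprf took another course, below every earlier age at both P21 and P48, with 22.5 and 9.23 FPKM (-1.20).

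Lists of synaptic genes had negative medians, with 1 gene past the limit. Of 16 members for ionotropic glutamate receptors and their auxiliary subunits, 1 was lower and 0 higher, beside 0.668% and 1.01% of all members. Of the 16, 14 were negative, beside 61.2% of all members, with a median of -0.33. The lower gene was Shisa6, an AMPA receptor partner, with 13.3 FPKM at P21 and 4.86 at P48 (-1.29). The auxiliary subunit Cacng3 had 191 and 116 FPKM (-0.71) and the obligatory NMDA subunit Grin1 188 and 127 (-0.56), whereas the AMPA subunit Gria2 had 98.7 and 118 (0.26). In Tle4 CThPN the median of these genes was -0.31.

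Among 47 members for postsynaptic scaffolds and plasticity kinases 0 passed the limit, 41 were below 0 (61.2% of all members were) and the median was -0.40, against -0.09 in Tle4 CThPN. The adhesion molecules Nlgn3 (54.8 and 30.00 FPKM, -0.85), Lrrtm3 (27.00 and 15.1 FPKM, -0.79) and Lrrtm1 (59.2 and 34.7 FPKM, -0.75) had the largest differences, and Rasgrf1, a Ras exchange factor, was the largest in the other direction (68.1 and 100.2 FPKM, 0.55). Of 50 members of the vesicle and release machinery 0 passed the limit, beside 1.01% higher and 0.668% lower of all members, 40 were below 0 and the median was -0.22. In Tle4 CThPN 1 of the 50 was higher and 2 lower, and the median was 0.01. The priming factor Unc13a had 67.9 FPKM at P21 and 37.6 at P48 (-0.84) and the vesicular glutamate transporter Slc17a7 1063 and 713 (-0.57), whereas Snap25, a SNARE protein, had 3524 and 5026 (0.51) and the active zone scaffold Pclo 9.51 and 19.9 (0.99). These lists have a median GC content of 51.2% to 53.3%, and centred on GC content and length their medians were -0.11 for glutamate receptors, -0.10 for postsynaptic genes and -0.06 for release genes, of which 1 was then past the limit upward, Pclo, at 1.14.

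**Figure D5:**
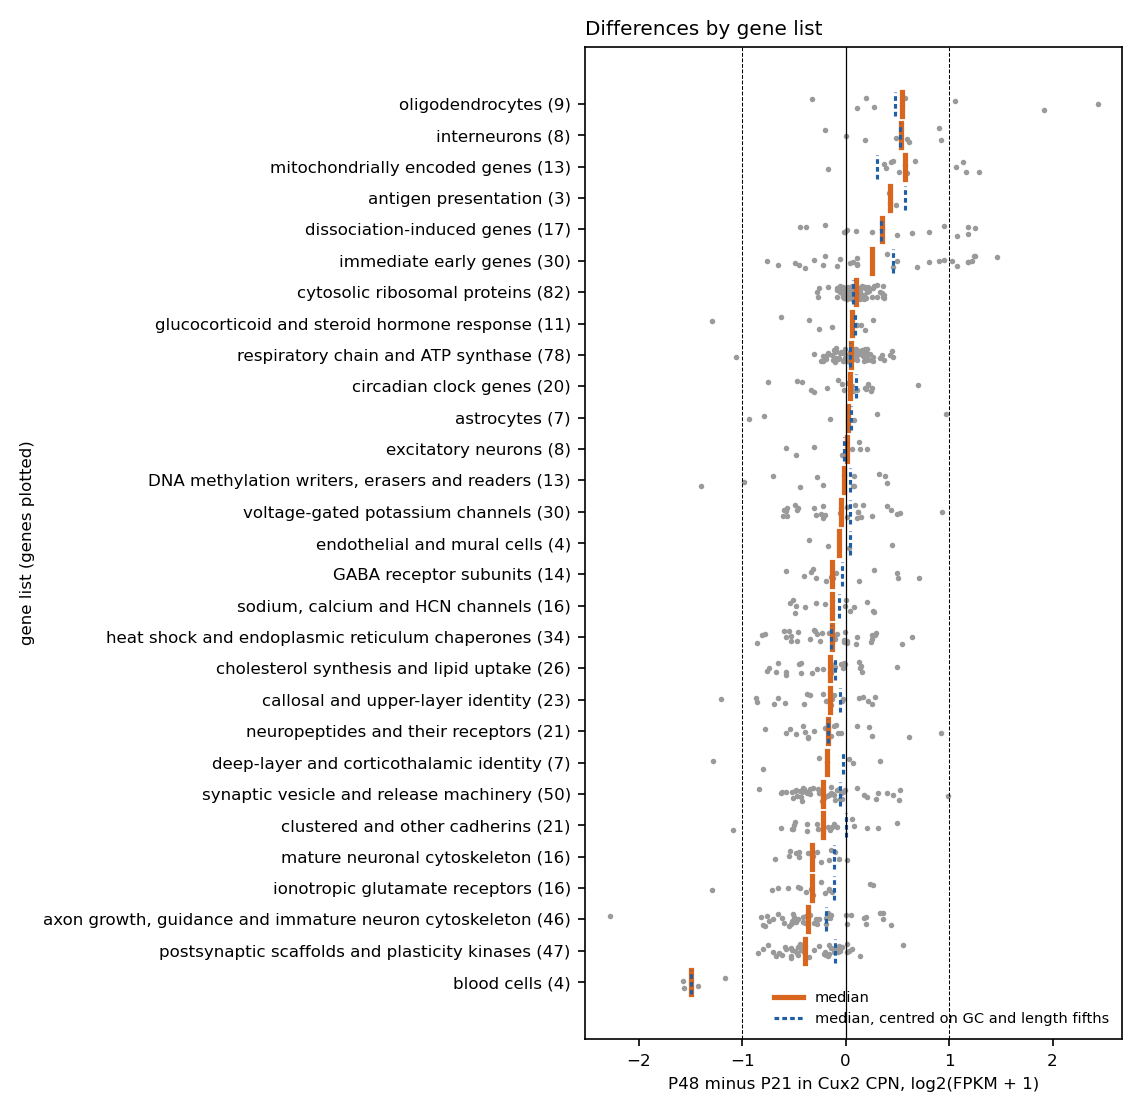
Difference between P48 and P21 in Cux2 CPN, in log2(FPKM + 1), for each gene (grey dots) of the lists with at least 3 members, without entries of up to 300 nt. Orange bars are list medians and dotted blue bars medians after centring on classes of GC content and length. Oligodendrocyte, interneuron and mitochondrially encoded genes stand highest, haemoglobin genes lowest, and the synaptic and cytoskeletal lists move towards 0 when centred.

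Ion channels and inhibitory receptors set how readily a neuron fires. Of 14 GABA receptor members, 30 for potassium channels and 16 for sodium, calcium and HCN channels, 0 passed the limit, beside 1.01% higher and 0.668% lower of all members, with medians of -0.13, -0.05 and -0.13. The GABA-A subunit Gabrb1 (36.3 and 60.1 FPKM, 0.71) and the potassium channel Kcnh7 (12.3 and 24.3 FPKM, 0.93) were the furthest upward, and Gabbr2, a GABA-B subunit (119 and 79.4 FPKM, -0.58), Kcnf1 (50.2 and 32.7 FPKM, -0.60) and the calcium channel subunit Cacna2d3 (122 and 83.9 FPKM, -0.54) the furthest downward. Of 21 cadherin and protocadherin members and their partners, 1 was lower (Cdh22, 15.3 and 6.67 FPKM, -1.09), and the median was -0.22. Centred on GC content and length, Cdh22 was at -0.75 and no longer past the limit, and the cadherin median was within 0.01 of 0. The centred medians were -0.03 for GABA receptors, 0.05 for potassium channels and -0.06 for the other channels.

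The neuropeptide, chaperone, cholesterol, clock and antigen presentation lists each had 0 genes past the limit, beside 1.01% higher and 0.668% lower of all members. Genes of neuropeptides and their receptors (21 members, 0 past the limit, median -0.17) had a summed level of 4064 FPKM at P21 and 4157 at P48 over the 26 with values here. The members had 5 positive differences, the furthest those of Sst (0.92) and Npy (0.61), and at the other end were the somatostatin receptor Sstr1 (19.4 and 10.9 FPKM, -0.78) and the corticotropin-releasing hormone receptor Crhr1 (57.96 and 38.6 FPKM, -0.58). Among the 34 members for chaperones 0 passed the limit and the median was -0.14, with Sdf2l1 (33.9 and 18.3 FPKM, -0.86), Pdia4 (50.3 and 28.3 FPKM, -0.81) and Hspa5, the main chaperone of the reticulum (329.8 and 228 FPKM, -0.53), below 0 and the cytosolic Hsp90aa1 (497 and 773 FPKM, 0.64) above it. The cholesterol list (26 members, 0 past the limit, median -0.15) held Mvd (23.5 and 13.5 FPKM, -0.76), Dhcr7 (20.8 and 12.05 FPKM, -0.74) and the cholesterol hydroxylase Cyp46a1 (263 and 167 FPKM, -0.66). Of 20 circadian clock members 0 passed the limit, and Per2 (12.04 and 6.77 FPKM, -0.75) and Bhlhe40 (95.01 and 155 FPKM, 0.70) were the extremes. The 3 antigen presentation members, B2m (115 and 155 FPKM, 0.43), H2-D1 (32.97 and 46.4 FPKM, 0.48) and Tapbp (10.8 and 14.8 FPKM, 0.42), were above 0 and 0 reached the limit.

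Markers of the labelled cell type were present at both ages, and markers of other cells differed in direction. All 8 excitatory neuron markers were members, with 0 past the limit, 4 above and 4 below 0 and a median of 0.01. Their sum was 1843 FPKM at P21 and 1371 at P48, and Slc17a7 held most of it. Haemoglobin genes, which mark blood, were lower at P48, Hbb-b1 with 74.9 FPKM at P21 and 24.6 at P48 (-1.57), Hba-a2 with 68.1 and 24.7 (-1.43), and Hba-a1 and Hbb-b2 with differences of -1.17 and -1.57. The members of each pair are near-identical, so reads could be split between them. Their sum was 219 FPKM at P21 and 79.8 at P48, against 174 and 20.8 in Tle4 CThPN, and these genes were left as members by the rule. Astrocyte markers went both ways, with 7 members and a median of 0.02. Aldh1l1 had 20.01 and 10.00 FPKM (-0.93), the glutamate transporter Slc1a2 96.9 and 55.7 (-0.79), and Aldoc 20.1 and 40.4 (0.97), and the 13 astrocyte markers with values summed to 855 and 849 FPKM. Microglial, oligodendrocyte precursor and cycling cell lists had 1 member each and endothelial and mural cells 4, none past the limit, and 8 microglial markers with values summed to 24.9 and 37.3 FPKM.

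Some of the late differences were shared by the 2 neuron classes. Over the same 7788 genes, Tle4 CThPN had 22 higher (0.282%) and 45 lower (0.578%). The 7788 were chosen by their Cux2 CPN levels. Those low in Tle4 CThPN, such as Scx (0.224 FPKM at P21 and 0.192 at P48), could hardly reach the limit there. Of the 79 genes higher in Cux2 CPN, 7 (8.86%) were also higher in Tle4 CThPN, beside 0.282% of all members, which is 31.8% of the latter's 22. Of the 52 lower, 10 (19.2%) were lower in both, beside 0.578% of all members, or 22.2% of the 45. The shared lower genes included Marcksl1, Dnmt3a, Camk1g, Nav1, which guides microtubules in growing axons (-1.11 and -1.14 in the 2 classes), and the 4 haemoglobin genes. Across genes the differences of the 2 classes, which share no samples, showed a Pearson r of 0.19 and a Spearman rho of 0.28. The median Tle4 CThPN difference was -0.09 for the genes higher in Cux2 CPN and -0.45 for those lower.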

How the data were processed

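RNA-seq was performed on sorted Cux2 CPN and Tle4 CThPN at 6 ages, with 2 libraries for each of the 12 groups. Per the study's methods, reads were trimmed, aligned with TopHat2 to NCBIM37 (mm9 per the labels) and summarised with Cuffdiff. The values the authors deposited are FPKM, 1 per gene and group over its libraries, with no counts and no library columns. No test, error or interval was therefore possible, and all values describe these libraries. How Cuffdiff scaled the libraries is not given in the sources used here.

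Differences of log2(FPKM + 1), which understate changes of low genes, were computed in Python 3.11.15 with numpy 2.4.6 and pandas 2.3.3, and plots with matplotlib 3.10.9. A limit of 1 was used. Exon and transcript lengths and GC content came from the GENCODE annotation of NCBIM37, found for 7644 and 7476 of the members. Promoters came from RefSeq on GRCm38.p6, matched by symbol or synonym only. The computation was tested on simulated data.

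Members and lists (23 gene lists and 9 marker lists) were chosen with earlier results of these data known. Genes named are the 15 largest rises and falls, list genes past the limit, up to 3 rises and 3 falls of each list, Cux2, Tle4 and the highest markers. Symbols on several rows and entries of up to 300 nt were not named by this rule. Further genes named, such as Deptor, Tpr, Nptxr, Bdnf and Snap25, were chosen after their values were seen. Alternatives were other pseudocounts, minimums, limits, scalings and drops, and, added after the data were examined, scaling without short entries and centring on GC content and length. The values of some genes of these lists are not reported here.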

Additional observations from a re-analysis of the deposited data

Results flagged for a closer look

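In 9 genes with a symbol of their own the change from P21 to P48 passed the limit in opposite directions in the 2 neuron classes. These contrasts rest on 1 value per group and were not tested. The myelin gene Mobp was higher at P48 in Cux2 CPN and lower in Tle4 CThPN (30.2 FPKM at P21 and 13.4 at P48), so that the changes differed by 2.17 on the log2 scale. The iron carrier Trf did likewise, with 7.62 and 2.14 FPKM in Tle4 CThPN and a difference of 3.89. Fut9, a fucosyltransferase that makes the Lewis x epitope, had 4.78 and 11.6 FPKM in Cux2 CPN and 40.3 and 19.5 in Tle4 CThPN, a difference of 2.13. The unannotated 5730408K05Rik was listed at 0 and 17.2 FPKM in Cux2 CPN and at 2.98 and 0 in Tle4 CThPN (6.17), and the 197-nt Gm12328 had 4.87 and 10.9 against 41.1 and 12.6 (2.65).

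The other 4 entries moved the other way. Gm10800 had 494 and 233 FPKM in Cux2 CPN and 64.1 and 189.9 in Tle4 CThPN, a difference of -2.63. Gm10801 (-2.12), Gm10718 (-2.50) and Gm16869 (-2.52) shared this form, and in Cux2 CPN all 4 had stood higher before birth, Gm16869 at 1769 FPKM and Gm10800 at 1449 FPKM at E18.5.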

How the results depend on the processing

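No paired analysis was possible because the table holds 1 value per group and its columns carry no replicate numbers, and for the same reason leaving out each library was not run. The counts of 79 higher and 52 lower genes moved with the low genes. They were 38 and 25 with a pseudocount of 5 FPKM, 28 and 22 with a minimum of 30 FPKM, and 30 and 24 with a minimum of 10 FPKM in both columns. With a limit of 0.58 they were 302 and 359, and with a limit of 1.5 they were 19 and 11. Centring on GC content and length left 24 lower genes. Scaling the columns to the same sum gave 442 and 11 and moved the median of all members from -0.08 to 0.45. Short entries weighed heavily on these sums, and the 102-nt entry Gm12563 held 62.4% of the sum at P21 and 52.9% at P48. Leaving out Gm12563 alone was not run. Without entries of up to 300 nt this scaling gave 92 and 46. Under the same-sum scaling over all members the medians of the glutamate and GABA receptor, release, postsynaptic, cytoskeletal, identity, channel, neuropeptide, cholesterol, chaperone, DNA methylation and cadherin lists and of the oligodendrocyte precursor and endothelial markers turned positive. With median-ratio scaling the potassium channel, DNA methylation and endothelial medians, near 0, turned positive, and with the same-sum scaling without entries of up to 300 nt the DNA methylation median did. Centring on GC content and length turned the median from -0.05 to 0.05 for potassium channels, from -0.01 to 0.05 for DNA methylation, from -0.12 to 0.14 for oligodendrocyte precursors, from -0.07 to 0.05 for endothelial cells and from 0.01 to -0.02 for excitatory neurons. The other settings kept both counts within 1.5 times. Of the 125 genes past the limit whose symbol stands in 1 row, 60 stayed past it with the pseudocount of 5, 85 with the same-sum scaling, 119 with that scaling without short entries and 117 with median-ratio scaling, and none changed sign under any scaling or pseudocount. Of the 109 with a known GC content, 77 stayed past it when centred. FPKM keep no read numbers, so counting error could not be given.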

Other observations

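Zinc finger genes were examined after several had appeared among the genes higher at P48. Of the 117 members whose symbol is Zfp and a number and whose GC content is known, 65 had a positive difference, beside 38.8% of all members. Of the 117, 4 were higher and 0 lower, beside 1.01% and 0.668% of all members. As the higher genes led to this choice, their count is no separate result. The median was 0.08, beside -0.05 for the same 117 genes in Tle4 CThPN. Zfp62 had 8.20 FPKM at P21 and 19.5 at P48, and Zfp935 had 7.01 and 16.2. Their median GC content was 45.4%, and centred on GC content and length the median was 0.14.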
